A study of Caenorhabditis elegans with 8 samples.

Results

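The genes of the muscle sarcomere, the contractile unit of muscle, were examined in whole adult *Caenorhabditis elegans* after a 24 h treatment aimed at neurons. The set held 38 genes, taken by their WormBase symbol from the 46739 genes listed in each count file, and 38 of 38 symbols were found. RNA was sequenced from 8 libraries of 1 strain, 4 from worms given ethanol (etoh) and 4 from worms given 5-Ph-IAA. Every library of both groups came from the neuronal DAF-15 AID worm, whose DAF-15 protein can be degraded in neurons through an auxin-inducible degron, a tag that directs the protein to the proteasome when an auxin is present. DAF-15, the worm counterpart of Raptor, belongs to the growth-regulating kinase complex TORC1. The auxin analog 5-Ph-IAA sets off the degradation, and ethanol served as control. Worms of both groups were fed *E. coli* OP50, treated from the L4 larval stage and collected on day 1 of adulthood. Not given in the sources used here are the promoter behind the neuronal restriction, the dose of 5-Ph-IAA and the number of animals per library. All libraries carry the degron, so effects of the compound and of losing DAF-15 cannot be told apart.

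A sarcomere is built from thick filaments of myosin and paramyosin that slide along thin filaments of actin. On the thin filament, tropomyosin and the troponins T, I and C make sliding depend on calcium. In the worm's body wall muscle the filaments are anchored to the cell membrane and the surrounding matrix at dense bodies and M-lines, through integrin and its partners. The pharynx, the feeding pump, uses its own genes for the myosin heavy chains and for part of the troponins. Among the 38 genes, 5 were taken as pharyngeal forms (*myo-1*, *myo-2*, *tnt-4*, *tni-4* and *tnc-2*) and 7 as body wall forms (*unc-54*, *myo-3*, *mup-2*, *tni-1*, *unc-27*, *tni-3* and *pat-10*). The remaining genes either serve both or were not assigned.

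Each library held 7354710 to 10893322 reads in genes, of which 0.89% to 1.06% belonged to the 38 sarcomere genes. All 38 passed the filter on low counts, and the lowest count of a member in any library was 58 reads. Levels are given in CPM, the reads of a gene scaled to the size of its library. For *daf-15* the edgeR adjusted p was 0.999 (log2 fold change -0.022, SE 0.057), but its transcript does not check a treatment that acts on the protein. Ethanol replicate 2 and 5-Ph-IAA replicate 1 were the lowest of their groups in most of the large sarcomere transcripts. The main results on these transcripts are therefore also given without these libraries, a choice made after the values were seen. Ethanol replicate 4 and 5-Ph-IAA replicate 2 lay above the mean of all libraries, at medians of 0.258 and 0.333 on the log2 scale against -0.367 and -0.402. The labels do not say whether replicates were separate cultures, and p-values therefore measure the spread between these libraries. In RNA of whole worms, fewer muscle cells and less RNA per muscle cell cannot be told apart. Nor can the reads of a member from muscle be told from its reads from other cells.

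Per base of exon, the sarcomere transcripts ranged over more than 3 orders of magnitude. The highest levels were those of *mlc-2*, a regulatory myosin light chain, at a mean of 1073 CPM per kb over the 8 libraries (range 989 to 1191), and of *pat-10*, the body wall troponin C, at 1047 CPM per kb (932 to 1151). The lowest was *ttn-1*, the worm titin, at 0.341 CPM per kb (0.220 to 0.424). Small proteins of the filaments thus stood at the top of the order and the giant proteins at its foot. Of the latter, *unc-22* (twitchin) stood at 3.17 and *unc-89* (obscurin) at 1.79 CPM per kb. Exon length counts every annotated exon of a gene, so a gene whose transcripts use only part of them is set too low. The part of length in this order was not tested. Summed over each class in the ethanol libraries, the 4 actins reached 1753 ± 128 CPM per kb and the 3 myosin light chains 1755 ± 57.9 CPM per kb. The 4 myosin heavy chains together reached 153 ± 30.0 CPM per kb, close to paramyosin, the core of the thick filament coded by *unc-15*, at 157 ± 28.7 CPM per kb (SD, n = 4). The actins *act-1* to *act-4*, like *mlc-1* and *mlc-2*, are near-identical copies that share many reads. How such reads were counted is not stated, so their separate and summed levels are uncertain.

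**Figure D1:**
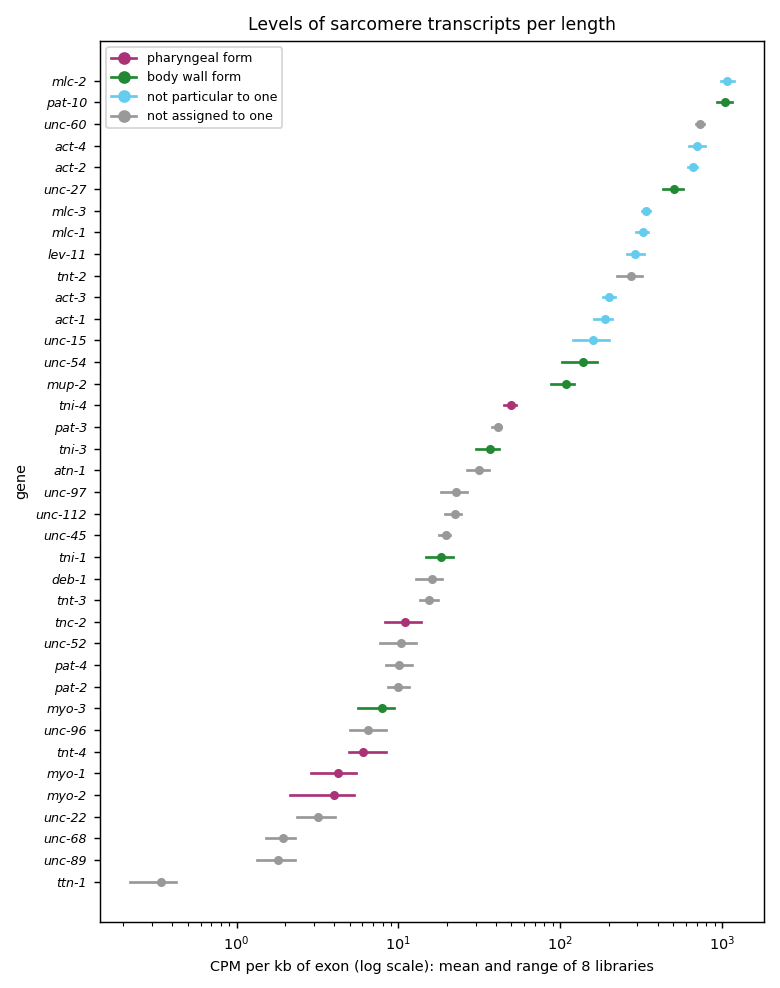
Levels of the 38 sarcomere transcripts in CPM per kb of exon on a log axis, with the mean (point) and range (line) of the 8 libraries, coloured by muscle type. From *mlc-2* at 1073 CPM per kb the order falls to *ttn-1* at 0.341 CPM per kb, and among heavy chains *unc-54* at 137.7 stands far above *myo-3* at 7.98, *myo-1* at 4.26 and *myo-2* at 3.98.

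Within gene families the main body wall form stood above the pharyngeal form. Per kb, *myo-3*, the body wall heavy chain A at the centre of the thick filament, stood at 5.26% to 6.80% of *unc-54*, the major heavy chain B, over the 8 libraries. The pharyngeal heavy chains stood lower still, *myo-1* at 2.64% to 3.53% and *myo-2* at 2.10% to 3.47% of *unc-54*. The pharyngeal troponin I gene *tni-4* was at 8.55% to 11.6% of *unc-27*, the most abundant body wall troponin I. The pharyngeal troponin C gene *tnc-2* was at 0.793% to 1.39% of *pat-10*. Of the minor troponin I genes of the body wall, *tni-3* was at 6.43% to 8.30% and *tni-1* at 3.33% to 3.94% of *unc-27*, ranges that did not overlap. Both stood below the pharyngeal *tni-4*, which ranged from 45.2 to 53.8 CPM per kb against 30.2 to 41.9 for *tni-3* and 14.8 to 21.8 for *tni-1*.

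Comparing 5-Ph-IAA with ethanol asks whether muscle transcripts differ when DAF-15 is targeted in neurons. No sarcomere transcript passed the threshold. In edgeR's quasi-likelihood test, 0 of 38 rose and 0 fell at an adjusted p under 0.05, with 0 at an unadjusted p under 0.05. Among all 12021 tested genes 12 passed, or 0.0998%, of which 0.0832% were higher and 0.0166% lower. With the replicate number as a block, again 0 of 38 passed, against 88 genes in all, or 0.732%. At an unadjusted p under 0.05 with the block stood 2 of 38 members (5.26%), against 6.91% of all tested genes. With DESeq2, 0 members passed against 0.241% of all tested genes, and 0 stood at an unadjusted p under 0.05 against 3.19%. With limma-voom, 0 passed against 0.0749%, and 1 stood at an unadjusted p under 0.05 against 4.38%. The median log2 fold change of the members was 0.0187, and -0.000942 over all tested genes, with 23 members above 0 and 15 below. The groups of 4 libraries overlapped for every member, while they did not for 2.65% of all tested genes. Of the members 1, the troponin T gene *tnt-3*, was higher in 4 of 4 numbered pairs, as were 7.17% of all tested genes, and 1, *unc-97*, was lower in 4 of 4, as were 7.02%.

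How small a difference could have been missed depended on the gene. The 95% interval of the fold difference lay within 1.25-fold in both directions for 24 of 38 members, within 1.5-fold for 33 and within 2-fold for 38. It was narrow for abundant transcripts of short genes: for *act-2* it ran from 0.956 to 1.11-fold, for *mlc-3* from 0.908 to 1.05-fold, for *pat-10* from 0.880 to 1.04-fold, and for *unc-60*, which codes for the actin-severing protein cofilin, from 0.919 to 1.06-fold. It was wide for the heavy chains, reaching from 0.711 to 1.43-fold for *unc-54* and from 0.798 to 1.79-fold for *myo-2*. With the block the interval of *myo-2* widened further, to between 0.648 and 2.24-fold.

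**Figure D2:**
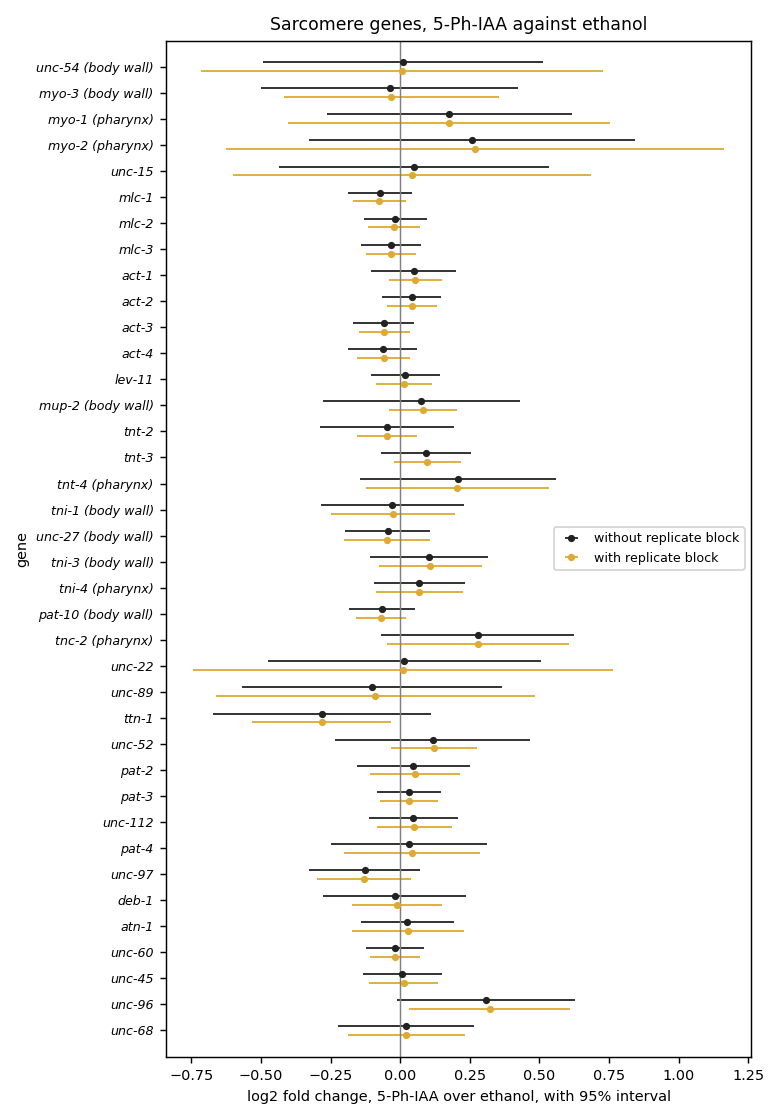
Log2 fold change of the 38 sarcomere transcripts, 5-Ph-IAA over ethanol (x axis), with its 95% interval, fitted without (black) and with (yellow) the replicate block. The estimates lie between -0.28 for *ttn-1* and 0.31 for *unc-96*, and the intervals of the heavy chains, *unc-15*, *unc-22* and *unc-89* are wider than those of actins and light chains.

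The heavy chains varied widely between libraries of one treatment. The transcript of *unc-54*, which codes for the main body wall myosin (chromosome I: 14855901 to 14863482 in WBcel235, the assembly of Ensembl release 115), stood at 858, 638, 857 and 1051 CPM in ethanol replicates 1 to 4 and at 639.8, 1047, 793 and 949.7 CPM in 5-Ph-IAA replicates 1 to 4. Ethanol replicate 2 and 5-Ph-IAA replicate 1 were equally low, and the groups overlapped over almost their whole range. Its log2 fold change came to 0.010 (SE 0.208), with an edgeR adjusted p of 0.999. It was lower with 5-Ph-IAA in pairs 1, 3 and 4 and higher in pair 2. Leaving replicate 2 out of the blocked fit gave a log2 fold change of -0.226 with an edgeR adjusted p of 0.0384. That was the only member and setting past the threshold among those run. In the same setting 11 of 38 members had an unadjusted edgeR p under 0.05, against 2 with the block on all 8 libraries. The blocked result of the members thus depended on replicate 2.

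The minor body wall heavy chain *myo-3* (chromosome V: 12226817 to 12234343) stood at 44.4, 38.4, 57.3 and 56.7 CPM with ethanol and at 34.4, 56.6, 46.5 and 55.2 CPM with 5-Ph-IAA. The same libraries were lowest in each group, and the log2 fold change was -0.038 (SE 0.196). The pharyngeal heavy chain *myo-1* (chromosome I: 7258946 to 7267057) stood at 27.1, 18.7, 28.5 and 28.8 CPM with ethanol and at 20.4, 35.4, 26.2 and 34.9 CPM with 5-Ph-IAA. Its log2 fold change of 0.18 (SE 0.197) was smaller than its pooled within-group SD of 0.34 on the same scale. The other pharyngeal heavy chain, *myo-2* (chromosome X: 12468061 to 12475348), stood at 25.3, 13.7, 25.4 and 27.4 CPM with ethanol and at 21.7, 32.6, 22.1 and 33.6 CPM with 5-Ph-IAA. It had the largest spread of the 38 members, 2.46-fold from the lowest to the highest library, with a log2 fold change of 0.26 (SE 0.251). For each of the 4 heavy chains the edgeR adjusted p was 0.999 without the block and between 0.968 and 0.999 with it. Without ethanol replicate 2 and 5-Ph-IAA replicate 1 the log2 fold changes were 0.011 for *unc-54*, -0.0060 for *myo-3*, 0.19 for *myo-1* and 0.18 for *myo-2*. In the same setting they were 0.072 for *unc-15*, 0.0375 for *unc-22*, -0.12 for *unc-89* and -0.16 for *ttn-1*, and none of the 38 members passed.

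**Figure D3:**
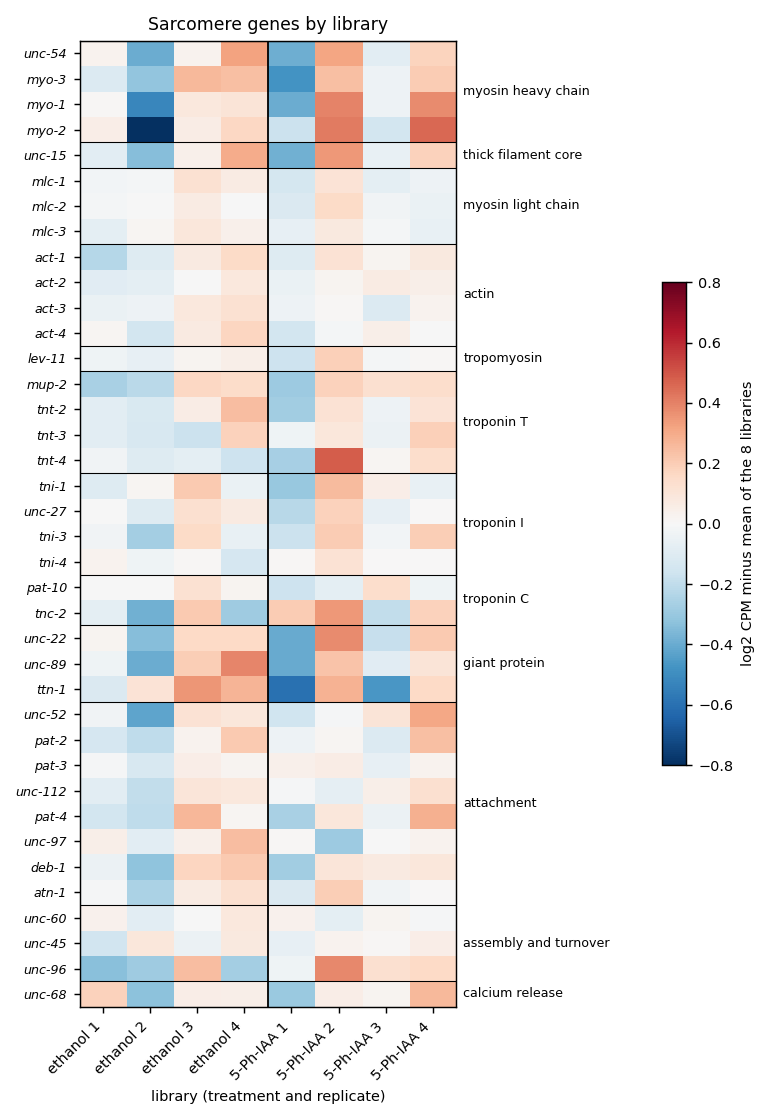
Level of each sarcomere transcript in each library as log2 CPM minus its mean over the 8 libraries (colour), with genes in rows grouped by role and libraries in columns (ethanol left, 5-Ph-IAA right). The rows of the heavy chains, *unc-15*, *unc-22* and *unc-89* are blue in ethanol 2 and 5-Ph-IAA 1, though *myo-2* only faintly in 5-Ph-IAA 1 (-0.171). The rows of light chains and actins stay mostly pale, with *act-1* at -0.228 in ethanol 1. The colour scale ends just short of *myo-2* in ethanol 2.

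Large components of the thick filament and the giant proteins moved together from library to library. For the 8 transcripts of the heavy chains, paramyosin, twitchin, obscurin and titin, 5-Ph-IAA replicate 1 was the lowest 5-Ph-IAA library in 8 of 8 and ethanol replicate 2 the lowest ethanol library in 7 of 8, the exception being *ttn-1*. Both held at once in 7 of 8, against 9.17% of all 7762 tested genes of at least 10 CPM. They also held at once in 10 of the 30 other members and in 29 of 95 other muscle genes tested. The pattern was thus not particular to the 8, and these libraries and transcripts were picked after the values were seen. The median log2 level of the 8 transcripts relative to the mean of the 8 libraries was -0.367 in ethanol replicate 2 and -0.402 in 5-Ph-IAA replicate 1. It was 0.258 in ethanol replicate 4 and 0.333 in 5-Ph-IAA replicate 2. Between lowest and highest library these 8 transcripts spanned 1.65 to 2.46-fold. The 7 light chain and actin transcripts spanned only 1.12 to 1.30-fold over the same libraries.

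The spread within groups also differed between these 8 and 7 transcripts. The pooled within-group SD of log2 CPM lay between 0.293 and 0.410 for the 8 large transcripts and between 0.0674 and 0.139 for the 7 light chain and actin transcripts, with a median of 0.109 over all tested genes of at least 10 CPM. Only 2.29% of those genes had a larger SD than *unc-54* and 0.567% a larger one than *myo-2*, whereas 82.5% exceeded *act-2*. Although *unc-54* moved 1.65-fold and *unc-15* 1.66-fold between libraries, their ratio per kb held within 82.8% to 93.6%. These groupings were drawn after the values were seen and are given as a description. The 30 members outside the 8 ran from 0.0618 to 0.248 in SD. Among the 8, *unc-15* has 3424 exon bases. Longer members outside the 8 included *unc-52* (14253 bases, SD 0.225) and *unc-68* (16197 bases, SD 0.224), and the short *mup-2* (1465 bases) stood at 0.225.

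Levels by exon length over the other genes are set beside this pattern. Outside the muscle genes, tested genes of at least 10 CPM with 6000 or more exon bases (165 genes) had a median relative level of -0.146 in ethanol replicate 2 and -0.0642 in 5-Ph-IAA replicate 1, while genes under 1000 bases (1960 genes) stood at 0.0940 and 0.00195. In 5-Ph-IAA replicate 2, where the large sarcomere transcripts stood at 0.333, long genes stood at -0.0138. The part of transcript length in the spread of the sarcomere genes was not tested.

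**Figure D4:**
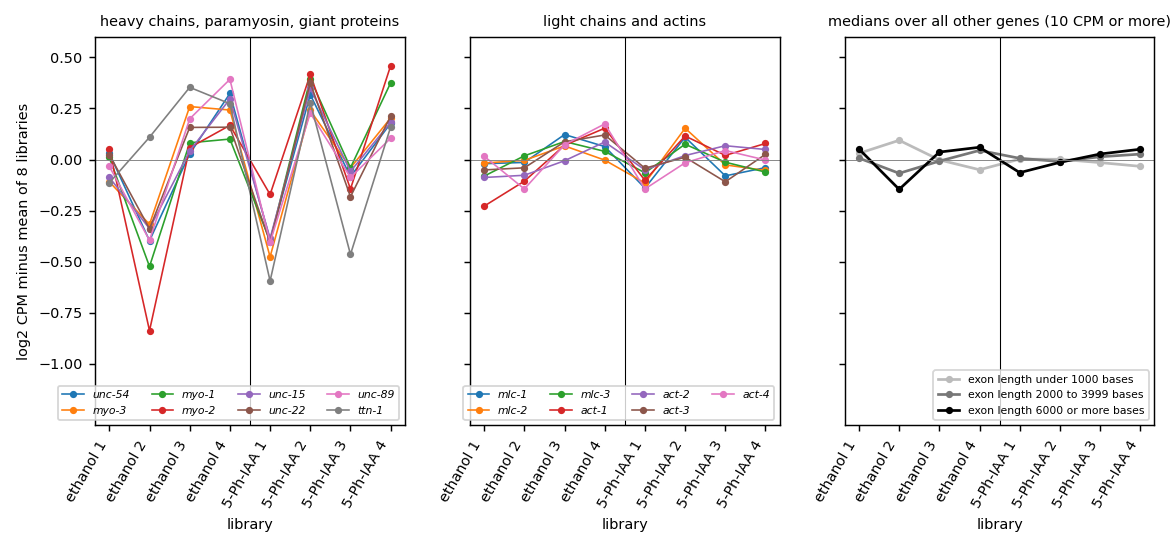
Log2 CPM minus the mean of the 8 libraries (y axis) by library (x axis) for the heavy chains, paramyosin and giant proteins (left), the light chains and actins (middle) and the median of all non-muscle genes of at least 10 CPM in 3 classes of exon length (right). The left panel dips in ethanol 2 and 5-Ph-IAA 1, to a median of -0.367 and -0.402, while long genes at large stand at -0.146 and -0.0642.

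Of the light chains, *mlc-1* and *mlc-2*, regulatory chains that lie 2623 bases apart on the X chromosome, stood at 383 ± 18.2 and 692 ± 18.4 CPM with ethanol and at 364 ± 27.4 and 683.5 ± 55.9 CPM with 5-Ph-IAA (SD, n = 4). The essential light chain *mlc-3* stood at 439 ± 21.4 and 429 ± 19.7 CPM. All 3 had a log2 fold change just under 0, between -0.074 and -0.018. Of the 4 actin genes, 2 had values above 0 and 2 below, between -0.063 and 0.048, and the tropomyosin gene *lev-11* stood at 689 ± 24.0 CPM with ethanol and at 698 ± 71.3 CPM with 5-Ph-IAA. Of the actins, 3, *act-1*, *act-2* and *act-3*, lie within 10726 bases on chromosome V and *act-4* lies on X.

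None of the troponin transcripts passed the threshold in edgeR, DESeq2 or limma-voom on the 8 libraries. In the body wall the troponin T gene *mup-2* stood at 131, 136, 176 and 174 CPM with ethanol and at 128.6, 179, 172 and 174 CPM with 5-Ph-IAA. Replicate 1 was low in both groups and replicates 3 and 4 were high in both, and the standard error of its log2 fold change of 0.076 fell from 0.149 without the block to 0.059 with it. The body wall troponin C gene *pat-10* stood at 1018, 1020, 1113 and 1039 CPM with ethanol and at 913, 969, 1127 and 998 CPM with 5-Ph-IAA. The highest value of each group was replicate 3, and the log2 fold change was -0.066 (SE 0.058).

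Troponin I, the inhibitory subunit, has 3 body wall genes here. The transcript of *unc-27* stood at 469, 438, 514 and 493 CPM with ethanol and at 403, 533, 449.5 and 470.1 CPM with 5-Ph-IAA. That of *tni-3* stood at 33.9, 28.7, 38.5 and 33.3 CPM with ethanol and at 30.8, 39.8, 34.1 and 39.7 CPM with 5-Ph-IAA. That of *tni-1* stood at 17.6, 19.2, 21.9 and 18.2 CPM with ethanol and at 15.3, 22.6, 19.6 and 18.2 CPM with 5-Ph-IAA. For each of these 3 the lowest 5-Ph-IAA library was replicate 1 and the highest replicate 2, and their log2 fold changes were -0.045, 0.10 and -0.028.

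Among the pharyngeal troponins, *tni-4* (chromosome IV) was steady, at 41.5, 39.7, 40.98 and 37.1 CPM with ethanol and at 41.1, 44.1, 40.8 and 40.8 CPM with 5-Ph-IAA, with a log2 fold change of 0.069 (SE 0.080). The troponin C gene *tnc-2* (chromosome II) stood at 8.38, 6.77, 10.2 and 7.26 CPM with ethanol and at 10.2, 11.3, 7.71 and 10.1 CPM with 5-Ph-IAA. It was higher in 3 of 4 pairs and lower in pair 3, and its log2 fold change of 0.28 (SE 0.168) did not pass (edgeR adjusted p = 0.999, and 0.818 with the block). The troponin T gene *tnt-4* (chromosome V) stood at 7.97, 7.57, 7.72 and 7.26 CPM with ethanol, and at 6.76, 11.4, 8.24 and 8.97 CPM with 5-Ph-IAA. The ethanol values lay within 1 CPM of each other and the 5-Ph-IAA values on both sides of them, with a log2 fold change of 0.21 (SE 0.171). The exons of *tnc-2* overlap those of *clec-143* on the other strand over 157 bases, and the strand setting of the counts is not given.

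Set side by side, the 5 pharyngeal forms had log2 fold changes of 0.069 to 0.28 with a median of 0.21, 5 of 5 above 0, as were 49.7% of all tested genes. Under the block without replicate 2, *myo-1* stood at -0.059 and *myo-2* at -0.019, and over all settings run they ranged from -0.0586 to 0.352 and from -0.0188 to 0.426. The 7 body wall forms lay between -0.066 and 0.10 with a median of -0.028, 3 above 0 and 4 below. The medians thus differed by 0.237 on the log2 scale, and by 0.168 without ethanol replicate 2 and 5-Ph-IAA replicate 1. None of these 12 genes passed the threshold by itself in edgeR with or without the block, DESeq2 or limma-voom on the 8 libraries, and in edgeR none had an unadjusted p under 0.05. The difference between the forms was not tested, since genes of one library are not replicates.

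Summed over the forms, the pharyngeal transcripts amounted to 4.29%, 3.73%, 4.06% and 3.77% of the body wall transcripts in ethanol replicates 1 to 4. With 5-Ph-IAA they amounted to 4.62%, 4.74%, 3.98% and 4.75%. Replicates 1, 2 and 4 with 5-Ph-IAA lay above every ethanol library, and replicate 3 lay within the ethanol range, so the groups overlapped (3.96 ± 0.264% and 4.52 ± 0.368%, SD, n = 4). For the heavy chains alone the share was 5.39 ± 0.545% with ethanol and 6.24 ± 0.441% with 5-Ph-IAA, and for the troponins alone 3.21 ± 0.223% and 3.60 ± 0.342%. The difference of the mean log2 ratios was 0.190 for all forms, where the spread between libraries of a group was 0.11. It was 0.149 without ethanol replicate 2 and 5-Ph-IAA replicate 1.

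**Figure D5:**
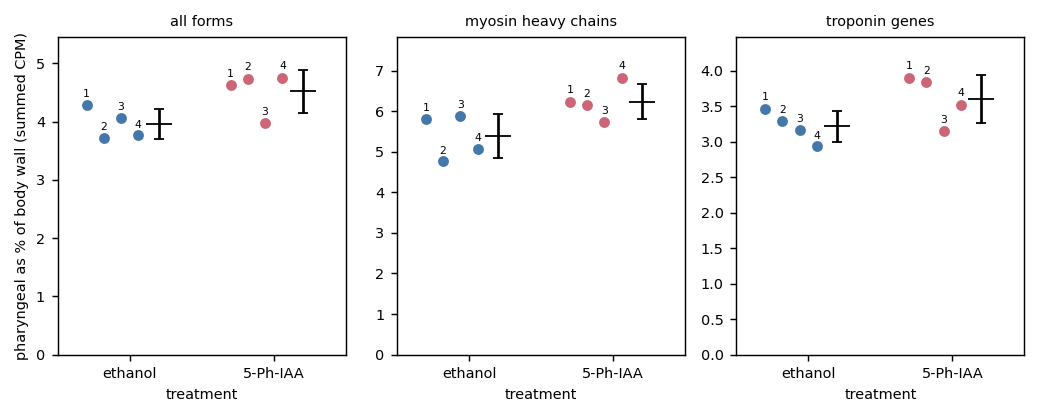
Summed CPM of the pharyngeal forms as a percentage of that of the body wall forms (y axis) by treatment, for all forms, for myosin heavy chains and for troponins, with 1 numbered point per replicate and mean ± SD beside the points. With 5-Ph-IAA the all-forms share lies at 4.62% to 4.75% in replicates 1, 2 and 4 and at 3.98% in replicate 3, against 3.73% to 4.29% with ethanol.

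Other genes of the pharynx, from a list of 18 that holds no member but shares *ceh-22* and *tbx-2* with the muscle transcription factors, were scarce in these libraries, 9 of them being tested. Their summed level lay between 62.0 and 70.0 CPM with ethanol and between 65.4 and 79.6 CPM with 5-Ph-IAA, with 8 of the 9 above 0 and 0 past the threshold in edgeR, and *phat-5* had no read in any library. Their part in the pharyngeal share above was not tested.

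The lowest and the highest log2 fold change of the set belonged to a giant protein and a protein of the M-line, and neither passed the threshold. The transcript of *ttn-1* (chromosome V: 6120909 to 6202632), the titin-like elastic protein, stood at 17.2, 20.1, 23.8 and 22.5 CPM with ethanol and at 12.3, 22.6, 13.5 and 20.8 CPM with 5-Ph-IAA. Replicates 1 and 3 with 5-Ph-IAA lay below every ethanol library and the other two within the ethanol range. Its log2 fold change of -0.28 (SE 0.181) did not pass without the block, nor with it (SE 0.123, unadjusted p = 0.0271, edgeR adjusted p = 0.603). The transcript of *unc-89* (chromosome I: 4035702 to 4090885), obscurin of the M-line, stood at 44.7, 34.8, 52.5 and 60.01 CPM with ethanol and at 34.5, 53.5, 43.0 and 49.1 CPM with 5-Ph-IAA. It followed the heavy chains, with the same lowest libraries and a log2 fold change of -0.10 (SE 0.199).

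The highest value was that of *unc-96* (chromosome X: 611120 to 621290), an M-line protein needed for orderly thick filaments. It stood at 8.52, 8.83, 12.8 and 8.93 CPM with ethanol and at 10.5, 14.1, 11.8 and 12.04 CPM with 5-Ph-IAA. Ethanol replicate 3 lay within the range of the 5-Ph-IAA libraries, so the groups overlapped. The log2 fold change of 0.31 (SE 0.155) did not pass without the block (unadjusted p = 0.0577, edgeR adjusted p = 0.999) or with it (unadjusted p = 0.0307, edgeR adjusted p = 0.632).

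At the attachments to membrane and matrix, 6 of 8 genes had values above 0 and 2 below, between -0.13 and 0.12. The lowest was *unc-97*, which codes for PINCH, a partner of integrin-linked kinase, at 35.6, 32.5, 35.4 and 40.9 CPM with ethanol and at 34.6, 28.2, 34.4 and 35.0 CPM with 5-Ph-IAA. It was lower in each pair, yet by less than the spread between libraries (log2 fold change -0.13 ± 0.096 SE). Its edgeR adjusted p was 0.999, or 0.866 under the block. The highest was *unc-52*, which codes for perlecan of the basement membrane, at 143 ± 23.02 CPM with ethanol and at 155 ± 21.3 CPM with 5-Ph-IAA (SD, n = 4). The integrin subunit *pat-2* stood at 38.8 ± 5.07 CPM with ethanol and at 40.2 ± 4.42 CPM with 5-Ph-IAA, and the subunit *pat-3* between 107.5 and 122.2 CPM and between 112.3 and 122.6 CPM. Integrin-linked kinase *pat-4*, kindlin *unc-112*, vinculin *deb-1* and α-actinin *atn-1* had log2 fold changes of 0.032, 0.047, -0.020 and 0.026. Ethanol replicate 2 was the lowest ethanol library for 8 of these 8 genes. So it was for the heavy chains, for 13 of 19 other dense body and M-line genes and for 9 of 14 germline markers, but for 0 of 5 epidermal markers. Without ethanol replicate 2 and 5-Ph-IAA replicate 1 the log2 fold changes of the 8 attachment genes lay between -0.20 (*unc-97*) and 0.078 (*unc-52*), and those of *pat-3* and *atn-1* turned to -0.014 and -0.0072.

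The remaining members act in assembly and in excitation. The myosin chaperone *unc-45* stood at 67.9 ± 5.28 CPM with ethanol and at 68.5 ± 2.33 CPM with 5-Ph-IAA, and the cofilin gene *unc-60* at 530.6 ± 26.1 and 524 ± 18.1 CPM. The ryanodine receptor *unc-68*, which releases calcium from the sarcoplasmic reticulum, stood at 31 ± 4.47 and 31.4 ± 4.82 CPM (SD, n = 4). Their log2 fold changes were 0.0076, -0.018 and 0.020.

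The other genes of muscle gave the same count. From lists of dense body and M-line proteins, actin regulators, relatives of myosin and actin, calcium handling, the dystrophin complex, basement membrane, muscle transcription factors and myosin folding chaperones, 95 genes were tested and 0 passed in either direction, with or without the block. At an unadjusted p under 0.05 stood 0 without the block and 1 with it (*act-5*, the actin of the intestine, edgeR adjusted p = 0.265), against 4.41% and 6.91% of all tested genes. Their median log2 fold change was 0.0135. The lowest log2 fold changes were those of *lev-8*, an acetylcholine receptor subunit, at -0.56 (SE 0.373), and of *hnd-1*, a muscle transcription factor, at -0.25 (SE 0.280), and the highest those of *sup-10*, part of a muscle potassium channel complex, at 0.33 (SE 0.341), and of *unc-120*, a muscle transcription factor related to SRF, at 0.26 (SE 0.214). All 4 had means under 6 CPM in both groups and an edgeR adjusted p of 0.999.

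By class, the basement membrane genes shared the dip of the large sarcomere transcripts, with median relative log2 levels of -0.144 in ethanol replicate 2 and -0.218 in 5-Ph-IAA replicate 1. The chaperones of myosin folding stood at -0.0528 and -0.0513, and the actin regulators at -0.0429 and -0.0102. The summed ranges of markers of other tissues overlapped between the groups. The summed neuronal markers lay between 460 and 488 CPM with ethanol and between 442 and 471 CPM with 5-Ph-IAA, and the intestinal markers between 2370 and 2600 CPM and between 2130 and 2490 CPM. Single intestinal markers, named after their values were seen, did differ with the block. The proton pump subunit *vha-6* fell (ethanol 283 ± 18.02 CPM, 5-Ph-IAA 249 ± 19.7 CPM, SD, n = 4 each), with an edgeR adjusted p of 0.0236 with the block and 0.674 without it. The protease gene *cpr-1* rose, from 19.1 ± 5.08 to 25.3 ± 2.36 CPM, with an edgeR adjusted p of 0.0396 with the block and 0.999 without it. For *elt-7*, an intestinal transcription factor, the groups did not overlap, as for 2.65% of all tested genes (5.01 ± 0.537 and 3.68 ± 0.350 CPM). Its edgeR adjusted p was 0.999 without the block and 0.723 with it. Of the 9 intestinal markers tested, 5 were lower and 2 higher in 4 of 4 numbered pairs, against 7.02% and 7.17% of all tested genes. With the block 1 of the 9 passed as higher and 1 as lower, against 0.732% of all tested genes in either direction. The part of these intestinal differences in the sarcomere values was not tested. The summed epidermal markers were lowest in 5-Ph-IAA replicate 1, at 4370 CPM against 4880 to 5680 CPM in the other 7 libraries. Most of that sum came from the collagens *col-140* (2873 CPM) and *col-19* (1402 CPM). Of the 5 epidermal markers tested, 2 had their lowest 5-Ph-IAA value in that library, and *elt-3* had its highest there (31.9 CPM). The part of the epidermal sum in the dip there was not tested.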

How the data were processed

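Whole-worm RNA was sequenced in 8 libraries, 4 per treatment. For each library the authors deposited unnormalized gene counts. FastQC 0.11.5, TopHat2, HTSeq and DESeq2 are named, without roles, per the submitters' processing notes. Not given in the sources used here are the genome build, annotation, strand setting and treatment of reads with several alignments. Lines naming no gene, left out of library sizes and tests, held 47.74% to 48.06% of a file's counts as reads in no gene and 4.14% to 4.55% as reads with several alignments. Ensembl release 115 (WBcel235) held 46484 of the 46739 gene IDs and gave symbols, coordinates and exon lengths.

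Genes passing filterByExpr (12021) were fitted with edgeR 4.0.16 (R 4.3.3, TMM factors 0.987 to 1.02, robust quasi-likelihood test, two-sided), adjusted by Benjamini-Hochberg over every tested gene, at a threshold of 0.05. The common biological coefficient of variation was 7.67%. Standard errors are the absolute log2 fold change over the root of F. Groups were taken from the treatment label. Both groups carry replicate numbers 1 to 4, whose meaning no label states. Deviations from group means correlated at 0.1474, 0.1305, 0.1002 and 0.1441 between same-numbered libraries, narrowly over the bar of 0.1 in replicate 3, and at -0.099 to 0.0103 otherwise, so blocked values are printed where they change a count or a call. No pair of replicates had counts within sampling noise. Alternatives were the block, other scalings and filters, DESeq2 1.42.0, limma 3.58.1 (voom) and leaving out libraries. Leaving out 2 libraries together was added after seeing the data. The fits were tested on simulated data.

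The members and lists were chosen with earlier results of these data known. Every library's value is given for heavy chains, for troponins assigned to pharynx or body wall, for members with an unadjusted p under 0.05 in either fit, and for the 3 highest and 3 lowest log2 fold changes. Of other muscle genes the 2 highest and 2 lowest are named, and *act-5* in addition, after its value was seen. No sequence is printed.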

Additional observations from a re-analysis of the deposited data

Results flagged for a closer look

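Of 76 sets of 4 values (each member in each treatment group), 7 held 1 library whose gap to its nearest neighbour, as a share of the whole range, exceeded Dixon's 95% critical value for 4 samples. Chance alone gives about 1 such set in 20. In the thick filament, the pharyngeal heavy chain *myo-2* was low in ethanol replicate 2, at 13.7 CPM against 25.3 to 27.4 CPM (gap share 0.843). The light chain *mlc-2* was high in ethanol replicate 3, at 719 CPM against 679 to 686 CPM (0.835). Of the troponins, *mup-2* was low in 5-Ph-IAA replicate 1, at 129 CPM against 172 to 179 CPM (0.853), and *tni-4* was high in 5-Ph-IAA replicate 2, at 44.1 CPM against 40.8 to 41.1 CPM (0.914). At the attachments, *unc-97* was low in 5-Ph-IAA replicate 2, at 28.2 CPM against 34.4 to 35.0 CPM (0.908), and *deb-1* was low in 5-Ph-IAA replicate 1, at 51.6 CPM against 65.5 to 66.8 CPM (0.912). The M-line gene *unc-96* was high in ethanol replicate 3, at 12.8 CPM against 8.52 to 8.93 CPM (0.903).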

How the results depend on the processing

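The count of genes past the threshold over the whole table, 12 in the edgeR fit, became 88 with the replicate block, 62 with no filter on low counts, 5 with a filter of 5 CPM in 4 libraries, 29 with DESeq2 and 24 with DESeq2 and the block. Leaving out 1 library gave 6 to 19, the ends being without 5-Ph-IAA replicates 4 and 3, and 7 without 5-Ph-IAA replicate 1 or 2. Leaving out 1 replicate number under the block gave 51 (replicate 2), 78 (replicate 3), 82 (replicate 1) and 92 (replicate 4). The causes of these shifts were not tested. Sarcomere genes past the threshold numbered 0 in the settings run, except for 1 (*unc-54*, log2 fold change -0.226) under the block without replicate 2, so the range over left-out libraries was 0 to 1, and other muscle genes numbered 0 in the settings run. In that setting 11 of 38 members had an unadjusted edgeR p under 0.05 and 13 changed sign, against 2 and 0 with the block on all libraries. The share of all tested genes in that setting is not given here. On all libraries the block changed no call of a sarcomere gene. The members' median log2 fold change lay between -0.0643 and 0.0702, so its sign was not stable. The pharyngeal minus body wall median stayed between 0.151 and 0.284, and the log2 ratio difference between 0.137 and 0.263, over settings that share libraries. Over 21 settings, 24 of 38 members changed sign at least once, and of these only *unc-54*, in the setting above, did so past the threshold. Counts as low as 58 limit *tnt-4*, *tnc-2* and *unc-96*, and the spread between libraries limits the heavy chains.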
